A study of Mus musculus with 6 samples.

Results

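The cadherin and protocadherin genes were compared between a mouse gastric adenocarcinoma line and its paclitaxel-resistant derivative. Members were all genes of the deposited count table whose name is Cdh followed only by digits or begins with Pcdh. There were 93 such names. Pcdhgb8, annotated as a polymorphic pseudogene, was left out, which left 92 of the 21959 genes in the table, 23 cadherins and 69 protocadherins.

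RNA was sequenced from 3 libraries of each line. MPC cells, named MTC in the study, carry the genotype CDH1-/-;Trp53-/-. They descend from gastric organoids of a C57BL/6J mouse with floxed alleles (Cdh1 flox/flox and Trp53 flox/flox) and the Mist1-CreER transgene. Tamoxifen in culture induced deletion in both genes, and for Cdh1 the study names exon 3 as deleted. The cells were recovered from a subcutaneous tumour in a BALB/c nude mouse and cloned. MPC-PTX cells, named MTC-R in the study, have the same genotype and were raised from MPC by over 30 cycles of paclitaxel (PTX), a microtubule-stabilising drug, and then cloned again. Both lines grew in RPMI medium with 10% FBS, and all 6 libraries carry the same batch number. Since each line is 1 clone, the effect of PTX and a difference between clones cannot be told apart. Nothing in the labels states that replicates came from separate cultures, so p-values measure only the spread between these libraries. The Cre driver Mist1 (Bhlha15) marks secretory cells such as gastric chief cells, and no library of cells that still carry intact Cdh1 was analysed here.

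Cadherins are calcium-dependent adhesion proteins built from extracellular cadherin repeats. Classical cadherins of type I and type II bind the same cadherin on the neighbouring cell and carry beta-catenin and p120-catenin on their tail, with alpha-catenin joining beta-catenin to actin, whereas protocadherins lack this catenin anchor. Most protocadherins lie in the alpha, beta and gamma clusters, which give neurons a surface identity by the choice of promoter. Many of the non-clustered protocadherins form the delta group, which acts in cell sorting and axon growth. In gastric epithelium E-cadherin, the product of Cdh1, is the main junctional cadherin, and its loss is the hallmark of diffuse gastric cancer.

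Total counts ranged from 16574580 to 23148182 per library and 13897 to 14295 genes were detected. The MPC libraries spread more than the MPC-PTX libraries, with a biological coefficient of variation of 17.9% against 3.01%. MPC replicate 3 differed most, with a chi-square per gene of 57.8 against replicate 1 and 30.7 against replicate 2. Replicates 1 and 2 of MPC gave 14.3. Across 11776 genes, deviations of MPC replicate 3 from the MPC mean had Spearman correlations of -0.58 with GC content and 0.47 with transcript length. Those of MPC replicate 1 were 0.47 and -0.43, and those of MPC replicate 2 were 0.35 and -0.21. Deviations from a mean of 3 libraries sum to 0, so these correlations do not single out 1 library. Results that rest on MPC replicate 3 are given with and without it. As a check of the cell type, summed epithelial markers reached 8559 to 9750 CPM in MPC and 4988 to 5091 CPM in MPC-PTX, led by Krt19, while 3 of the 14 markers on that list, the gastric genes Tff1, Tff2 and Gkn2, were at 0 in every library. Summed markers of fibroblasts (9.88 to 10.9 against 8.63 to 10.0 CPM), of leukocytes (11.7 to 13.0 against 9.51 to 10.7 CPM, mostly Cd68), of endothelium (3.35 to 4.62 against 3.02 to 3.37 CPM) and of neurons and glia (0.773 to 1.49 against 0.766 to 0.951 CPM) were low in both lines. Of these lists, 1 of 8 endothelial markers (Cldn5) and 3 of 10 markers of neurons and glia (Snap25, Elavl4 and Sox10) were at 0 in every library, whereas the endothelial markers Kdr and Vwf passed the low-count filter. CPM are counts relative to the library size after TMM scaling.

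Most of the superfamily was silent or nearly so. Of the 92 members, 29 had no count in any library, 38 had at most 1 to 9 counts in a library and 25 reached 10 counts in at least 1 library. Those at 0 held 7 of the 13 type II cadherins (Cdh7, Cdh8, Cdh9, Cdh12, Cdh18, Cdh19 and Cdh20), the kidney cadherin Cdh16, 13 of the 14 alpha protocadherins, and Pcdh8, Pcdh10 and Pcdh20. A count of 0 allows up to 3 counts, which is 0.130 to 0.181 CPM by unscaled library totals and covers counting error only.

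The low-count filter kept 20 members, which were tested together with all other genes, 11795 in total. In the quasi-likelihood test of edgeR, with p-values adjusted by Benjamini-Hochberg, 6 members were higher in MPC-PTX, 3 were lower and 11 did not pass an adjusted p of 0.05. Those higher were Pcdh9, Pcdh18, Pcdh19, Pcdhb9, Pcdhb18 and Pcdhb20, all protocadherins, and those lower were Cdh17, Pcdh7 and Pcdh1. The share of all tested genes called was 29.7%, with 14.1% higher and 15.6% lower, beside 9 of the 20 tested members. A member that passed the filter only through the line in which it is high had to differ, so these shares are a description. By the fold rule of the study's methods, which asks for more than 1 on the log2 scale in either direction and an unadjusted p below 0.05, 6 members were higher and 2 lower, against 8.11% of all genes (3.77% higher and 4.34% lower). The libraries of the lines did not overlap for 12 of the 20 members, against 46.9% of all genes. Over the tested members the median log2 fold change was 0.49, against 0.04 for all tested genes. Without MPC replicate 3 the counts were 9 higher and 5 lower, with Cdh3, Cdh6, Cdh24, Pcdhb14 and Pcdhb17 added. Only 3 higher and 2 lower remained where at least 10 counts were asked of every library, a filter under which Pcdh7, Pcdh9, Pcdhb18 and Pcdhb20 were not tested.

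**Figure D1:**
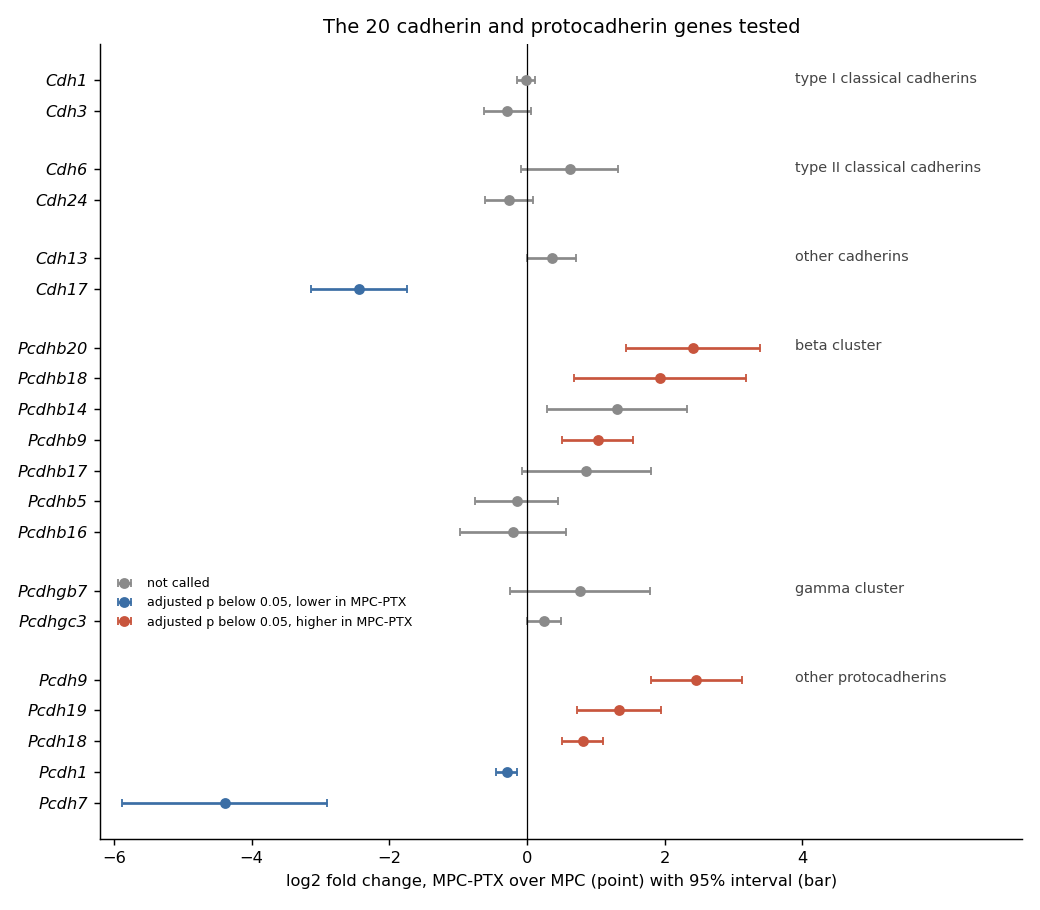
Log2 fold change of MPC-PTX over MPC (horizontal axis, points) with its 95% interval (bars) for the 20 tested members, grouped by class; red and blue mark the 6 higher and 3 lower genes with an adjusted p below 0.05 and grey those not called. Cdh1 lies nearest to 0, Cdh17 and Pcdh7 lie far to the left, and Pcdh9 and Pcdhb20 lie farthest to the right. The place of Pcdh7 rests on 3 MPC-PTX counts.

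The expressed repertoire was dominated by few genes in both lines. Levels of different genes are compared as CPM per kb of exon. Cdh1 stood first at 29.4 ± 0.499 CPM per kb in MPC and 29.1 ± 0.595 in MPC-PTX (SD, n = 3 each), and Pcdh1 was next at 22.2 ± 1.12 and 18.1 ± 0.492. Cdh13 reached 7.92 ± 1.75 in MPC and 10.1 ± 0.162 in MPC-PTX, and Cdh24 reached 7.25 ± 1.16 and 6.03 ± 0.818, and the libraries of these neighbours overlapped in MPC but not in MPC-PTX. Below them, between 1 and 3 CPM per kb in at least 1 line, came Cdh3, Cdh6, Cdh17, Pcdhgc3, Pcdh18 and Pcdh19. Of the summed cadherin level per kb, Cdh1 made up 56.6% to 60.1% in each of the 6 libraries. The share of Pcdh1 in the summed protocadherin level was 76.0% to 80.7% in MPC and 64.0% to 67.1% in MPC-PTX. Pcdh18 and Pcdh19 each held at most 3.99% of that sum in MPC libraries and at least 5.76% in MPC-PTX libraries.

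**Figure D2:**
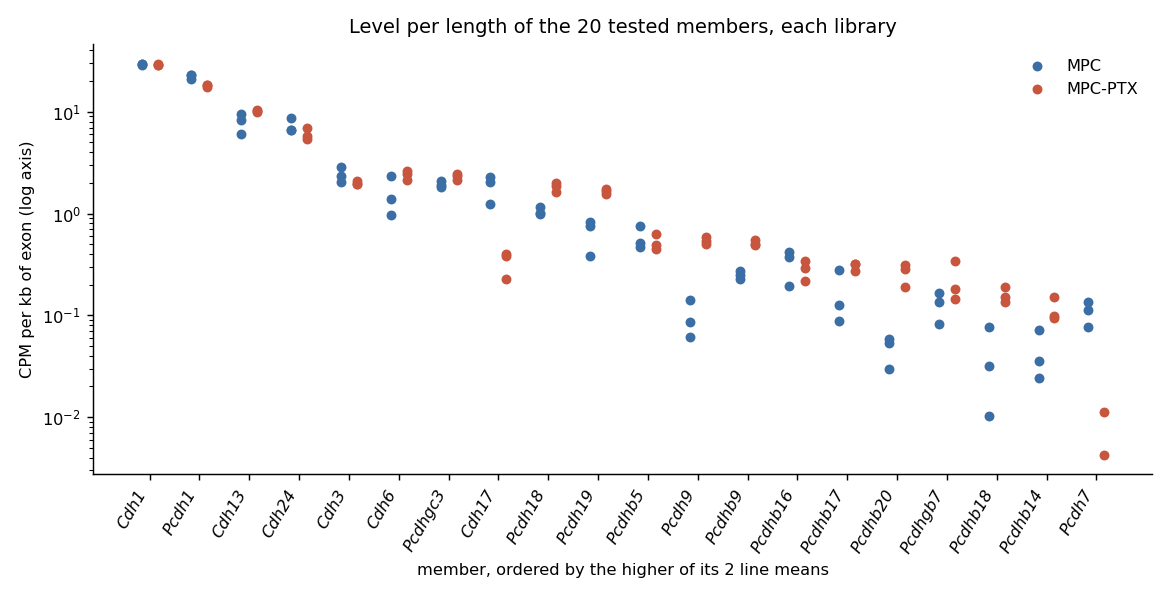
CPM per kb of exon (vertical log axis) of the 20 tested members in each MPC (blue) and MPC-PTX (red) library, with members ordered along the horizontal axis by the higher of the line means; values of 0 cannot be drawn on this axis, so Pcdh7 shows only 2 MPC-PTX points. Cdh1 and Pcdh1 lie above all other members, and Cdh17 and Pcdh7 show the widest gap downwards in MPC-PTX.

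Cdh1, a gene targeted in this genotype, comes first among the classical cadherins of type I. It lies on chromosome 8 (GRCm38, 106603351 to 106670246, plus strand), and its transcript has 16 exons and 4430 bases. The libraries gave 2561, 2555 and 2812 counts for MPC and 3068, 3018 and 2217 for MPC-PTX. In bulk RNA fewer cells with a transcript and less transcript per cell cannot be told apart, here and below. As CPM the values are 134 ± 2.28 and 133 ± 2.72, the narrowest spread of the 20 members relative to the mean in MPC, and the lines overlap. With a log2 fold change of -0.01 (95% interval -0.15 to 0.12), it had an adjusted p of 0.864 by edgeR. In all 14 alternative analyses the adjusted p stayed between 0.305 and 0.980. Other genes on chromosome 8, where Cdh3 also lies, had a median log2 fold change of 0.26, with 39.2% called higher and 5.15% lower. The study names exon 3 as the deleted exon, from Sanger sequencing of cDNA of MTC cells and organoids. It also reports that E-cadherin protein was absent from MTC cells by immunohistochemistry and lost by western blot. Neither of the primers it lists for that exon was found in the annotated Cdh1 transcripts, and the reverse one matched Trp53. The extent of the deletion was therefore not checked here. In the annotation exon 3 runs from 106649001 to 106649224, has 224 bases and makes up 5.06% of the transcript. A count over the whole gene therefore checks neither the deletion nor the protein. Since 224 is not a multiple of 3, the annotated transcript without exon 3 leaves its reading frame and reaches a stop after 60 codons in place of 884.

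Cdh3 (P-cadherin, found in basal layers of stratified epithelia) is the upstream neighbour of Cdh1, with 46.1 kb between the genes. It had 239, 198 and 185 counts in MPC and 212, 189 and 143 in MPC-PTX. The level was 10.6 ± 1.93 against 8.69 ± 0.316 CPM, and MPC replicate 3 lay within the MPC-PTX range. Its log2 fold change of -0.28 (interval -0.63 to 0.06) was not called (adjusted p = 0.192 by edgeR), but was called without MPC replicate 3 (log2 fold change -0.45, adjusted p = 0.0141). The mesenchymal and neural cadherin Cdh2 (N-cadherin) was at the limit of detection, with 2, 4 and 1 counts in MPC and 1, 7 and 1 in MPC-PTX. Cdh4 (R-cadherin) had 2 counts in all and Cdh15 (M-cadherin, of muscle) likewise 2. Summed over the 5 genes of this type, the level was 145 ± 3.46 CPM in MPC and 142 ± 2.66 CPM in MPC-PTX.

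Among the type II cadherins, Cdh6 (K-cadherin of fetal kidney) and Cdh24 were tested. Cdh6 had 163, 243 and 437 counts in MPC and 456, 494 and 393 in MPC-PTX. In CPM, MPC replicate 3 lay inside the MPC-PTX range of 19.5 to 23.3, while the other MPC libraries had 8.66 and 12.5. The log2 fold change was 0.62 (interval -0.09 to 1.33, adjusted p = 0.165 by edgeR). It was 0.97 (adjusted p = 7.53e-04) without MPC replicate 3 and 0.45 (adjusted p = 0.0185) after correction for GC content and length. Cdh24, a cadherin that binds catenins, had 564, 445 and 478 counts in MPC and 568, 444 and 317 in MPC-PTX. Its libraries overlapped between the lines, 22.9 to 30.0 against 18.8 to 24.3 CPM, with a log2 fold change of -0.26 (interval -0.61 to 0.08, adjusted p = 0.222 by edgeR) and of -0.37 (adjusted p = 0.0391) without MPC replicate 3. Cdh10, of brain, was too low for the filter and was picked out after its values were seen. It had 1, 2 and 0 counts in MPC against 5, 12 and 6 in MPC-PTX, a ratio of 7.44 per total count (95% counting interval 2.25 to 38.7), and an adjusted p of 0.0442 by edgeR where no filter was applied. The endothelial Cdh5 (VE-cadherin) and the stromal Cdh11 (OB-cadherin) stayed at 1 to 6 counts per library.

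Of the 5 atypical cadherins 2 were tested, and only Cdh17 was called, beside 29.7% of all tested genes. Cdh17 (LI-cadherin of intestinal epithelium, which has a short cytoplasmic tail and no catenin site) lies on chromosome 4 (11758147 to 11817895). It had 105, 178 and 214 counts in MPC and 42, 38 and 17 in MPC-PTX. Every MPC-PTX library was below every MPC library, at 1.51 ± 0.431 against 8.35 ± 2.46 CPM. The log2 fold change was -2.44 (SE 0.30), which is 5.43-fold lower, with an adjusted p of 0.0012 by edgeR, and it was called in all 14 alternatives. The median of other genes on chromosome 4 was 0.20 on the log2 scale. Cdh13 (T-cadherin, anchored by a lipid tail and a receptor for adiponectin) had 1268, 2051 and 1951 counts in MPC and 2707, 2484 and 1918 in MPC-PTX. In CPM the MPC libraries read 67.4, 106 and 93.7, all below the MPC-PTX range of 112 to 116, and MPC replicate 1 was the lowest. The log2 fold change of 0.36 (interval -0.01 to 0.72) was not called (adjusted p = 0.127 by edgeR), and other genes on its chromosome 8 had a median of 0.26, with 39.2% of them called higher. Cdh23 (tip links of hair cells) had at most 2 counts in a library and Cdh26 had 1 count in all.

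Of the 12 non-clustered protocadherins, 5 passed the filter and each of these was called, 3 higher and 2 lower, beside 29.7% of all tested genes. Pcdh7 reached 10 counts only in MPC libraries and Pcdh9 in all libraries only of MPC-PTX, so this count is a description. Pcdh9 had the highest log2 fold change of the tested members, next to Pcdhb20. This brain-rich protocadherin of chromosome 14 (93013410 to 93890679) had 11, 8 and 20 counts in MPC and 79, 88 and 61 in MPC-PTX. The levels were 0.653 ± 0.281 and 3.66 ± 0.298 CPM, with no overlap between lines. It rose by 2.46 on the log2 scale (SE 0.28), 5.51-fold, with an adjusted p of 9.12e-04 by edgeR. The median of other genes on chromosome 14 was -0.02.

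Pcdh19, an X-linked gene mutated in epilepsy of girls, had 150, 78 and 178 counts in MPC and 383, 401 and 296 in MPC-PTX. As CPM, MPC replicate 2 was low (4.02, against 7.97 and 8.55 in the other MPC libraries), and the MPC-PTX libraries were close together at 16.4 to 18.1. The log2 fold change was 1.34 (SE 0.26), 2.53-fold, with an adjusted p of 0.00877 by edgeR. Its relative Pcdh18 (chromosome 3, 49743296 to 49757325), which like Pcdh19 belongs to the delta-2 group that can bind the WAVE actin regulators, had 116, 104 and 112 counts in MPC and 206, 222 and 182 in MPC-PTX. That is 5.64 ± 0.457 against 9.87 ± 1.01 CPM without overlap, a log2 fold change of 0.81 (SE 0.13, adjusted p = 0.00385 by edgeR). Other genes on chromosomes X and 3 had median log2 fold changes of -0.05 and -0.01. Pcdh9, Pcdh18 and Pcdh19 stayed called in every alternative that tested them, 13, 14 and 14 in number.

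Pcdh7 (BH-protocadherin of brain and heart) moved the other way. It lies on chromosome 5 (57717967 to 58133230) and had 27, 23 and 17 counts in MPC and 0, 1 and 2 in MPC-PTX. With 67 counts against 3 in all, the ratio per total count was 23.0-fold lower, with a 95% counting interval of 7.54 to 114. The fitted log2 fold change of -4.39 was -3.78 without MPC-PTX replicate 1 and -5.36 without MPC-PTX replicate 3. The adjusted p was 0.00244 by edgeR, and the gene was called in all 13 alternatives that tested it. Other genes of chromosome 5 had a median of 0.12. Pcdh1, an epithelial protocadherin of the airway and by far the most abundant of the family, fell slightly. Its counts were 3809, 3880 and 3835 in MPC and 3750, 3611 and 2598 in MPC-PTX, which is 184 to 202 CPM against 154 to 163. The lines did not overlap. The log2 fold change was -0.30 (SE 0.06, adjusted p = 0.0114 by edgeR). Pcdh1 lost the call without MPC replicate 2 (adjusted p = 0.0520) and without MPC-PTX replicates 1 (0.0596), 2 (0.0528) or 3 (0.0687). Other genes on its chromosome 18 had a median of 0.17 on the log2 scale, with 23.9% called higher and 11.1% lower.

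Further non-clustered genes were below the filter and were picked out after their values were seen. Pcdh11x, of the X chromosome, had no count in MPC and 1, 7 and 10 in MPC-PTX. With the MPC line set at 3 counts in all, it was 5.83-fold higher. Pcdh17, of the delta-2 group, likewise had none in MPC and 3, 2 and 3 in MPC-PTX, 2.59-fold higher on the same setting. These ratios leave out the counting error of the MPC-PTX counts, so they are not lower limits. Without a filter the adjusted p-values of Pcdh11x and Pcdh17 were 0.0559 and 0.0728 by edgeR. Pcdh12, of endothelium, had 0, 3 and 2 counts in MPC and none in MPC-PTX.

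**Figure D3:**
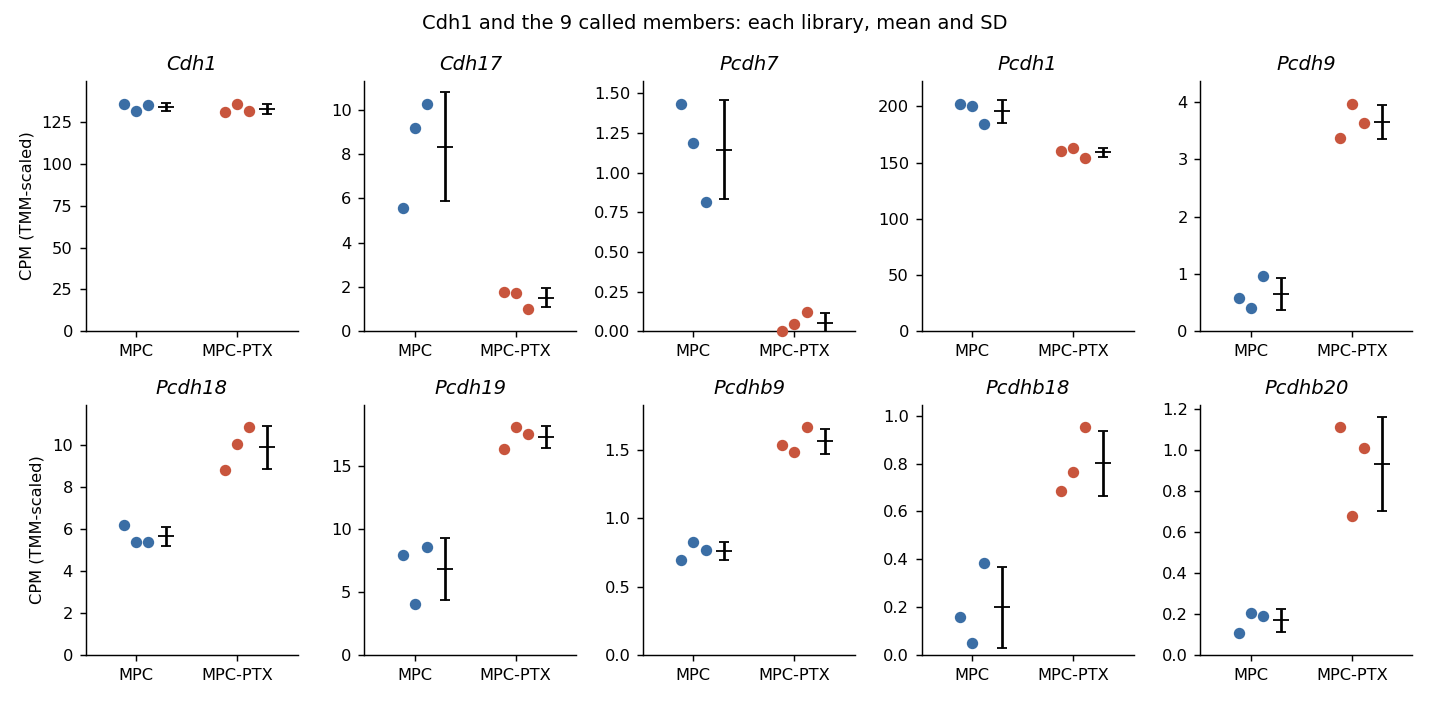
CPM per library (vertical axis, TMM-scaled, each panel from 0) of Cdh1 and the 9 called members in MPC (blue points) and MPC-PTX (red points), with the mean and SD of the 3 libraries in black. The Cdh1 points overlap at 131 to 136 CPM, whereas the libraries of the lines are apart in the other 9 panels.

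Promoters were at hand for 22 members and for 4 of the called ones, and these 4 are printed because they belong to the called members outside the clusters. The sequences are from RefSeq (GRCm38.p6), 300 bases each, from 250 before to 50 after the start, 5′ to 3′ on the gene's strand. Capitals mark GGGCGG or CCGCCC (the GC box, bound by Sp1) and CACCTG or CAGGTG (the E-box read by Snail and Zeb factors), each searched on both strands, and these motifs did not overlap one another.
Pcdh7, chr5:57717831-57718130, plus strand: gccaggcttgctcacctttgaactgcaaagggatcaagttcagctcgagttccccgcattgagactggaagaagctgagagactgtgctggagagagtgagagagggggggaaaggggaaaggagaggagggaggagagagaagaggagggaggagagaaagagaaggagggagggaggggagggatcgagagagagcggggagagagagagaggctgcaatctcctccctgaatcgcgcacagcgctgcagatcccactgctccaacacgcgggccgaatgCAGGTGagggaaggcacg
Pcdh9, chr14:93890630-93890929, minus strand: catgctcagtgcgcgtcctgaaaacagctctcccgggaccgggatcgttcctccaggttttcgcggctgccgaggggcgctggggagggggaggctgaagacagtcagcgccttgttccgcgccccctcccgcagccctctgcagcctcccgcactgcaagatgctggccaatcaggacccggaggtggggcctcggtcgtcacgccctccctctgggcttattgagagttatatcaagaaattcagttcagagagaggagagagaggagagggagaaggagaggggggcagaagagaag
Pcdh18, chr3:49757267-49757566, minus strand: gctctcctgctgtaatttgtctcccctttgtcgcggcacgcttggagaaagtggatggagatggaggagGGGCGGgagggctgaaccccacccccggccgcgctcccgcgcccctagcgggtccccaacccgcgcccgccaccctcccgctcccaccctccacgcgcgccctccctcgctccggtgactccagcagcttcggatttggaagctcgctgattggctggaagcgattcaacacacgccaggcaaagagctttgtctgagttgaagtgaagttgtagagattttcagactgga
Pcdh19, chrX:133688944-133689243, minus strand: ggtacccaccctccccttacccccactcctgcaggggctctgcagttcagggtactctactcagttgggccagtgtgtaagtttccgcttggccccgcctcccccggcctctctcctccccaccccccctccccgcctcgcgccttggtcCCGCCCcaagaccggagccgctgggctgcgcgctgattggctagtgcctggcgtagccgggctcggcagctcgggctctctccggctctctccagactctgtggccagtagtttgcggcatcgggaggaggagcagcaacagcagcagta

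The 3 promoters of genes that rose, Pcdh9, Pcdh18 and Pcdh19, held 18, 23 and 18 CpG dinucleotides, and that of Pcdh7, which fell, held 11. The median over 32851 mouse promoters of this table was 7, and 29.7%, 21.5% and 41.4% of all promoters held at least 18, 23 and 11. A GC box was found in Pcdh18 and Pcdh19, once each, and in 35.7% of all promoters. The E-box was found once, in Pcdh7, beginning at base 33 of the transcript, and is present in 20.2% of all promoters. TATAAA or TTTATA, the TATA box, was found in none of the 4 and in 13.6% of all promoters. A match in a window of this length is a description and does not show that a factor binds.

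The clustered protocadherins lie side by side on chromosome 18. Genes of the alpha and gamma clusters splice their own first exon to shared constant exons, and the beta genes are near copies with a single main exon. The counting tool is not given in the sources used here, so how reads were divided among these genes is uncertain, and values of single cluster genes carry that limit. The alpha cluster had 2 counts in all 6 libraries together, both of Pcdha9. The beta cluster was active at a low level, with 20 of 22 genes detected, and its summed level was 5.37, 7.63 and 10.1 CPM in MPC and 11.6, 11.5 and 11.7 in MPC-PTX. All MPC libraries were below the MPC-PTX libraries, by a ratio of means of 1.51, with no test of the sum. The gamma cluster reached 11.1 to 12.8 CPM in MPC and 13.3 to 15.2 CPM in MPC-PTX.

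Within the beta cluster 7 genes were tested, 3 were higher and 4 were not called, beside 14.1% higher and 15.6% lower of all tested genes. Pcdhb18 and Pcdhb20 reached 10 counts only in MPC-PTX libraries, so this count is a description. Pcdhb20 had 2, 4 and 4 counts in MPC and 26, 15 and 17 in MPC-PTX, a log2 fold change of 2.42 (SE 0.41, adjusted p = 0.00497 by edgeR). Pcdhb18, which had 3, 1 and 8 counts against 16, 17 and 16, followed at 1.93 (SE 0.53, adjusted p = 0.0317 by edgeR). Pcdhb9 had 13, 16 and 16 counts against 36, 33 and 28, a log2 fold change of 1.03 (SE 0.22, adjusted p = 0.0120 by edgeR). None of these 3 genes overlapped between the lines, beside 46.9% of all tested genes without overlap. Pcdhb20 was called in all 13 alternatives that tested it. Pcdhb18 lost its call without MPC replicates 1 (adjusted p = 0.0624) or 2 (0.0791) and without MPC-PTX replicates 1 (0.0755), 2 (0.0915) or 3 (0.104). Its log2 fold change ran from 1.49 without MPC replicate 2 to 2.79 without MPC replicate 3. Pcdhb9 lost it with DESeq2 (0.0571) and without MPC-PTX replicates 1 (0.0517) or 3 (0.0549).

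The genes with most counts in the cluster, Pcdhb5 and Pcdhb16, did not share this pattern of values. Pcdhb5 had 31, 35 and 56 counts in MPC and 52, 35 and 29 in MPC-PTX (log2 fold change -0.15, interval -0.76 to 0.46, adjusted p = 0.691 by edgeR). Pcdhb16 had 19, 38 and 46 against 36, 40 and 19 (log2 fold change -0.20, interval -0.98 to 0.57, adjusted p = 0.676 by edgeR). Together they supplied 36.8% of the cluster's counts. Pcdhb14 and Pcdhb17, named here after their values were seen, had 4, 6 and 13 against 19, 19 and 22 counts and 11, 8 and 27 against 35, 28 and 25 counts. Pcdhb14 passed the fold rule with a log2 fold change of 1.31 but not the adjusted p (0.0580 by edgeR), and Pcdhb17 passed neither (0.86, adjusted p = 0.150). Without MPC replicate 3, whose count was the highest of the MPC libraries in both genes, the adjusted p-values were 0.0110 and 0.00698. Without the 3 called genes, the other 19 beta genes summed to 6.57 ± 2.17 CPM in MPC and 8.33 ± 0.268 CPM in MPC-PTX. By library these sums were 4.41, 6.55 and 8.74 CPM in MPC and 8.29, 8.61 and 8.08 CPM in MPC-PTX. The lines overlapped only through MPC replicate 3. For other genes of chromosome 18 the median was 0.17 on the log2 scale, with 23.9% called higher.

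**Figure D4:**
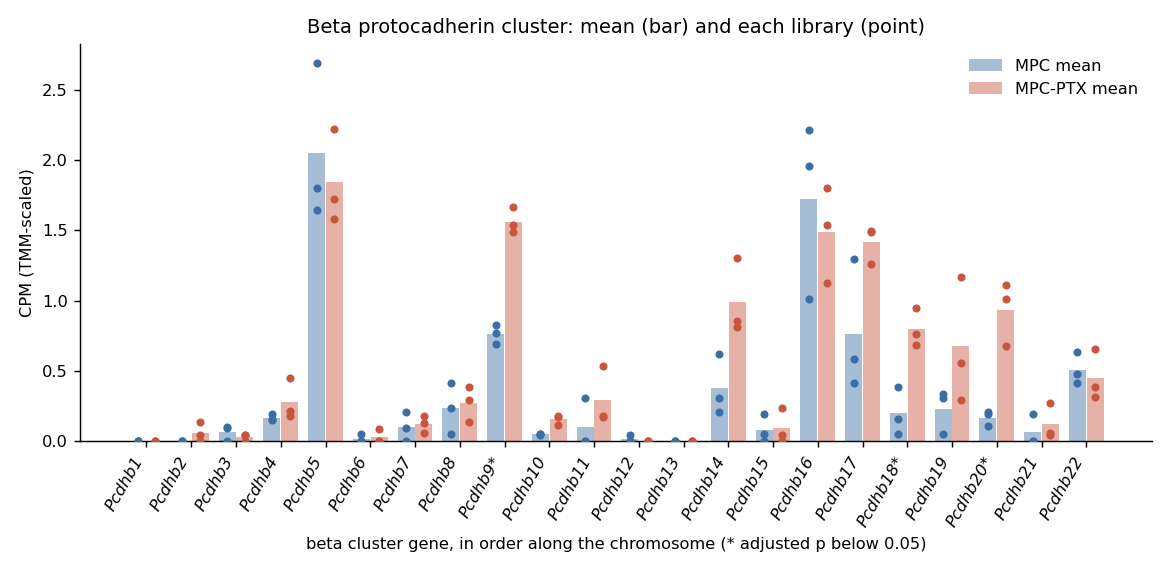
CPM (vertical axis, TMM-scaled) of the 22 beta protocadherins in their order along the chromosome (horizontal axis), with bars for the line means, points for the 3 libraries of MPC (blue) and MPC-PTX (red), and asterisks for an adjusted p below 0.05. Pcdhb5 and Pcdhb16 carry the tallest MPC bars and overlap between lines, while Pcdhb9, Pcdhb18 and Pcdhb20 are taller in MPC-PTX.

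In the gamma cluster Pcdhgc3, a C-type gene that is also made outside the nervous system, held most counts. It had 214, 196 and 219 counts in MPC and 276, 297 and 215 in MPC-PTX, that is 10.7 ± 0.645 and 12.7 ± 0.807 CPM, and the lines did not overlap. The log2 fold change of 0.25 (interval 0.00 to 0.49) was not called (adjusted p = 0.118 by edgeR), though it was after correction for GC content and length (adjusted p = 0.0465). Pcdhgb7 had 12, 15 and 8 counts against 16, 19 and 27 (log2 fold change 0.77, interval -0.25 to 1.78, adjusted p = 0.227 by edgeR). The other 19 genes of this cluster had fewer than 10 counts in every library, and 3 of them had none.

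Genes that work with the cadherins were counted from lists and tested in the same fit, in which 14.1% of all tested genes were higher and 15.6% lower. Of 26 catenin and junction plaque genes, 20 were tested, none was higher and 10 were lower in MPC-PTX, with a median log2 fold change of -0.24. The counts were 0 higher and 11 lower at an unadjusted p below 0.05, 0 and 10 with DESeq2, and 3 and 14 without MPC replicate 3. All 4 catenins of the core junction complex were called lower. Ctnnd1 (p120-catenin) had 1517, 2061 and 2241 counts in MPC and 1459, 1359 and 991 in MPC-PTX (log2 fold change -0.69, adjusted p = 0.00481 by edgeR). Ctnna1 (alpha-catenin) fell by 0.44 (adjusted p = 0.00273), Jup (plakoglobin) by 0.37 (adjusted p = 0.0103) and Ctnnb1 (beta-catenin) by 0.20 (adjusted p = 0.0360), all on the log2 scale by edgeR. The call of Jup was lost without MPC replicate 2 (adjusted p = 0.0501), MPC-PTX replicate 2 (0.0528) or MPC-PTX replicate 3 (0.0586), and that of Ctnnb1 without MPC replicate 2 (0.0967) or any 1 of the MPC-PTX libraries (0.126 to 0.157) with scaling by library size alone (0.0760) and with no filter on low counts (0.0549). Of the 9 tested epithelial markers 8 were lower too, and their part in this result was not tested.

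The list of other genes with cadherin repeats also holds Fjx1, a kinase without such repeats. Of its 28 genes 10 were tested, 3 were higher and 5 were lower, with a median log2 fold change of -0.71. The largest falls were in Fjx1, a Golgi kinase that modifies the giant cadherins Fat and Dachsous, and in Dsc2, a desmosomal cadherin. Fjx1 had 52, 69 and 69 counts in MPC and 16, 11 and 9 in MPC-PTX, a log2 fold change of -2.47 (SE 0.23, adjusted p = 3.51e-04 by edgeR). Dsc2 had 545, 779 and 925 counts against 150, 149 and 137, a log2 fold change of -2.42 (SE 0.18, adjusted p = 1.53e-04 by edgeR). Both were without overlap and were called in every alternative that tested them. Cdhr2, of the links between microvilli, was lower at 15, 33 and 31 against 3, 6 and 13 counts (log2 fold change -1.87, adjusted p = 0.0451 by edgeR), and at -2.72 without MPC-PTX replicate 3. Fat2 (-1.03, adjusted p = 0.0285) and Dchs2 (-1.29, adjusted p = 0.0166), giant cadherins of tissue polarity, were lower as well. Without MPC replicate 2 or MPC-PTX replicate 2 only 2 of the 5 were called, and without MPC-PTX replicate 1 or 3 there were 3. The 3 genes that were higher lie outside the rule for naming and were looked up afterwards. They were the planar polarity receptors Celsr1 (0.32) and Celsr2 (0.56) and the calsyntenin Clstn1 (0.22), all on the log2 scale. Clstn1 was called in 5 and Celsr2 in 14 of 14 alternatives.

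Among 19 transcription factors listed as acting on cadherin genes, 14 were tested, with 5 higher and 5 lower. Of the repressors of E-cadherin, Zeb1 rose from 58, 89 and 112 counts in MPC to 181, 224 and 155 in MPC-PTX (log2 fold change 1.04, SE 0.21, adjusted p = 0.0102 by edgeR). Zeb2 had 10, 5 and 12 counts against 82, 61 and 56 (log2 fold change 2.79, SE 0.29, adjusted p = 5.85e-04 by edgeR). Neither overlapped between the lines, and both were called in every alternative that tested them. Snai1 and Snai2 had at most 2 counts in any library, Twist1 had none, and Twist2, singled out after its values were seen, had none in MPC and 8, 7 and 7 in MPC-PTX. The factors of differentiated epithelium moved in both directions. Grhl3 (20, 19 and 15 against 188, 146 and 129 counts) rose by 3.01 on the log2 scale (adjusted p = 7.08e-05 by edgeR), and Klf4 (125, 157 and 170 against 540, 580 and 428 counts) by 1.70 (adjusted p = 9.88e-05). Hnf4a (927, 1442 and 1524 against 24, 19 and 16 counts) fell by 6.11 (adjusted p = 9.23e-06 by edgeR), and Cdx2, an intestinal factor known to activate Cdh17, fell by 1.06 with 315, 354 and 360 against 213, 204 and 113 counts (adjusted p = 0.00155 by edgeR). Whether Cdx2 bears on the fall of Cdh17 was not tested. The remaining calls, all within a log2 fold change of 1, were Tcf4 higher and Tcf3, Grhl1 and Elf3 lower.

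Regulators of the clustered protocadherins, such as the insulator protein CTCF, cohesin and DNA methyltransferases, were mostly not called. Of 20 in the table all 20 were tested, 1 was higher and none lower by edgeR, with a median log2 fold change of 0.22. The gene called was Dnmt3b, which methylates the promoters of these clusters in the embryo, with 94, 76 and 96 counts in MPC and 145, 137 and 125 in MPC-PTX (log2 fold change 0.54, SE 0.15, adjusted p = 0.0314). At an unadjusted p below 0.05 there were 4 higher and 0 lower, with DESeq2 2 and 0. This count turned on single libraries. It was 14 higher and 1 lower without MPC replicate 3, 2 higher without MPC replicate 1, and 0 without any other single library. Ctcf itself had 155 CPM in MPC and 170.5 CPM in MPC-PTX (log2 fold change 0.14, adjusted p = 0.269).

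Genes that cut cadherins or carry protocadherin signals to actin gave 1 higher and 4 lower of 21 tested, of 23 listed. Abi2, a subunit of the WAVE complex, had 279, 324 and 546 counts in MPC and 995, 1024 and 799 in MPC-PTX, a log2 fold change of 1.23 (SE 0.21, adjusted p = 0.00554 by edgeR). The kinase Ptk2b (PYK2), which protocadherins bind and restrain, had 1850, 2025 and 1936 against 1094, 921 and 720 counts, a log2 fold change of -1.17 (SE 0.08, adjusted p = 1.00e-04 by edgeR). Both were called in all 14 alternatives. Also lower were Ncstn (nicastrin), by 0.45, and the kinase Src, by 0.39, both on the log2 scale. The sheddases Adam10 and Adam17 were not called, with log2 fold changes of 0.10 and 0.08. Without MPC replicate 3 the list gave 4 higher and 8 lower, and without MPC replicate 1 it gave 3 higher and 4 lower.

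**Figure D5:**
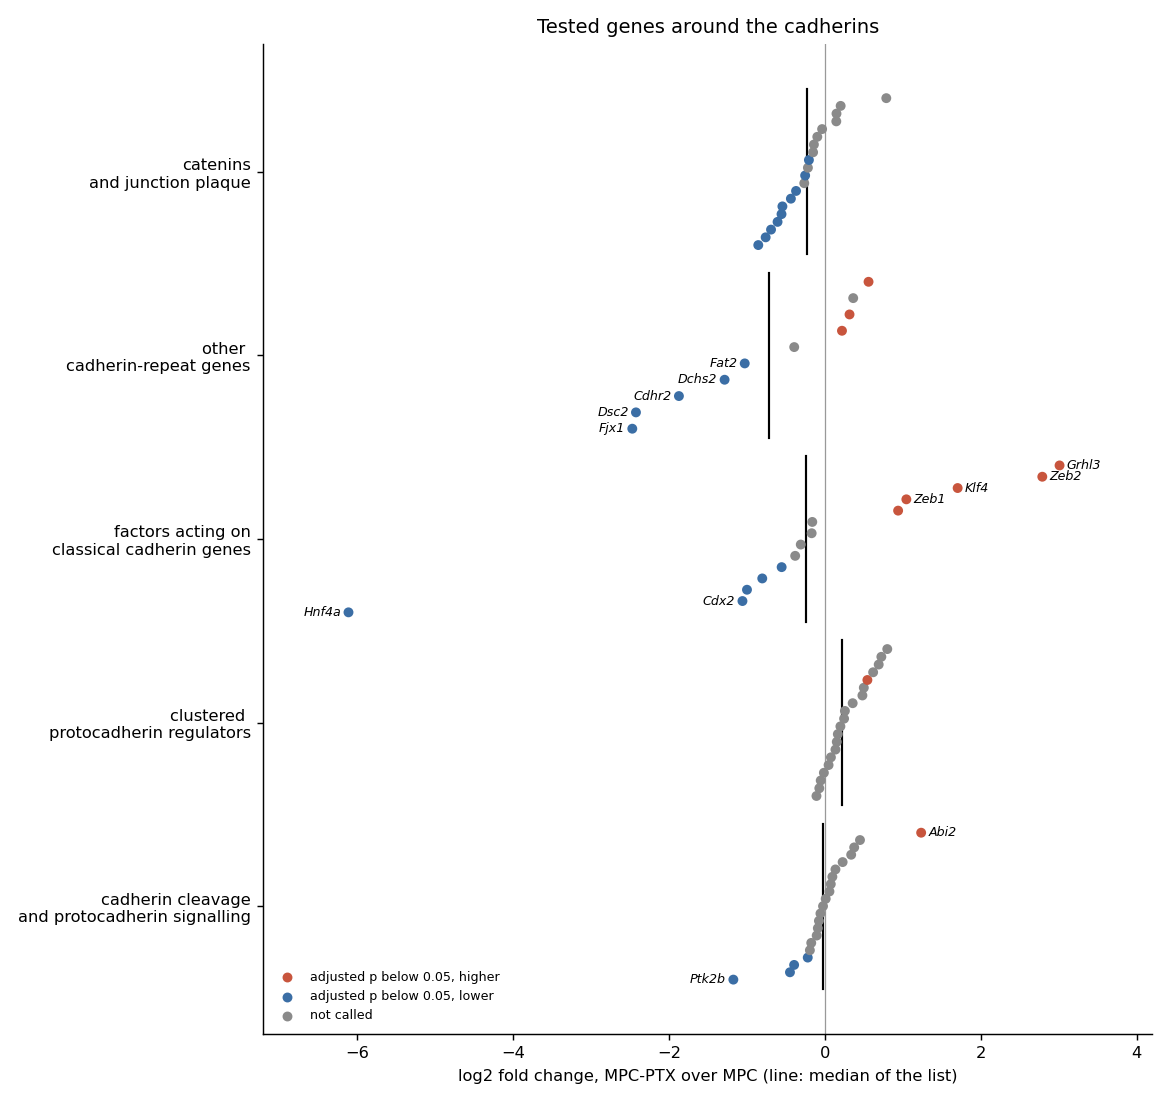
Log2 fold change of MPC-PTX over MPC (horizontal axis) of the tested genes of 5 lists around the cadherins, 1 point a gene, with black lines at the list medians; red and blue mark an adjusted p below 0.05 and genes past a log2 fold change of 1 are named. The called catenin and plaque genes all lie left of 0, whereas the factors acting on cadherin genes spread from Hnf4a at -6.11 to Grhl3 at 3.01.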

How the data were processed

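The authors purified mRNA of the MPC and MPC-PTX lines on poly-T beads. Reads were filtered by fastp 0.22.0 and then aligned by HISAT2 2.1.0, and the deposited values are whole-number counts per gene in each of the 6 libraries, neither normalized nor pooled. The genome build, annotation, counting tool and use of strand are not given in the sources used here. The 6 sample tables held the same values as the series table, and 51 genes with an Ensembl identifier but no name were kept in the fit. Total counts were 19349425, 19448643 and 21047477 in MPC and 23148182, 21907322 and 16574580 in MPC-PTX. From the deposited counts, genes were filtered with filterByExpr (minimum count 10), scaled by TMM and tested over all 11795 genes kept with edgeR 4.0.16 (glmQLFit with robust estimation, glmQLFTest, R 4.3.3) and Benjamini-Hochberg adjustment. The script was tested on simulated data with the same spread in both lines. The real lines differ in spread, so that test gives no error rate for these data. The standard error is the log2 fold change divided by the square root of F, and the 95% interval uses the total degrees of freedom of the fit. With 3 libraries a line, the smallest p of an exact permutation test (two-sided) is 0.1. Ratios with 1 to 3 counts on one side have exact Clopper-Pearson intervals, and a line at 0 was set at 3 counts over the line. The sources used here name no molecular identifiers, so both cover counting error only. A ratio against a line at 0 leaves out the counting error of the other line. Every pair of libraries within a line differed by more than sampling noise, with a chi-square per gene of 1.82 or more. Exon lengths and positions are those of GENCODE M21 (GRCm38), matched by Ensembl identifier for 92 of 92 members.

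Members and lists were chosen with earlier results of these data known. Named genes were Cdh1, members called at an adjusted p of 0.05 or with a mean of at least 5 CPM in a line, the 2 members of each cluster with most counts, Ctnna1, Ctnnb1, Ctnnd1 and Jup, and list genes that were called and lay more than 1 from 0 on the log2 scale. A called gene of the cleavage and signalling list and a marker gene are not reported here. The alternatives were DESeq2 1.42.0, other scalings, other low-count filters, a replicate block, a loess correction for GC content and length, and each library left out in turn.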

Additional observations from a re-analysis of the deposited data

How the results depend on the processing

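Under the 14 alternatives the members higher in MPC-PTX numbered 3 to 9. The low value came from asking at least 10 counts in every library, where 13 members were tested, and that filter also left 2 members past the fold rule in place of 8. With 1 library left out, the members higher ranged from 4 to 9, those lower from 2 to 5 and those past the fold rule from 6 to 9, each highest without MPC replicate 3. The labels state no pairing of libraries between the lines, so the numbers were not taken as pairs. Deviations of same-numbered libraries from their line means had correlations of 0.15, -0.02 and 0.17. For libraries of different number they ran from -0.23 to 0.15. Deviations within a line sum to 0, so these correlations cannot decide whether libraries were paired. With the replicate block, 8 members were higher and 3 lower, Cdh6 and Pcdhb14 being added, and 5 clustered protocadherin regulators were higher in place of 1. For these regulators the count was 2 with DESeq2, 3 with library size alone, 6 with the GC and length correction and 7 with that correction and the replicate block, and 0 to 14 higher and 0 to 1 lower with 1 library left out. Catenin and plaque genes higher numbered 1 with correction and block and 0 to 3 with 1 library left out. Lower genes of the cadherin-repeat list numbered 2 to 6 with 1 library left out. Cleavage and signalling genes higher numbered 2 with the correction, with or without the block, and with 1 library left out they were 1 to 4 higher and 3 to 8 lower. The cause of these shifts was not tested. Of 482 values of named genes under the alternatives, 440 kept direction and side of the threshold, 32 lost the call, 8 gained it and 2 changed sign without being called either way. These were Cdh1 (0.024 on the log2 scale with library size alone) and Pcdhb5, which ranged from -0.32 to 0.048 with 1 library left out and was above 0 without MPC replicate 3. Of the named genes, Ctnnb1 lost its call with the replicate block (adjusted p = 0.0636 by edgeR). The median of all tested genes was 0.04 on the log2 scale with TMM, 0.01 with DESeq2 and 0.08 with library size alone. Depth limits the 38 members with 1 to 9 counts at most and the 29 at 0, where differences were mostly not detectable.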
